A study of Mus musculus with 62 samples.

Results

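The genes described are 10 regulators of muscle protein loss and growth: the ubiquitin ligase genes Trim63, Fbxo32, Fbxo30, Fbxo31 and Fbxo40, the growth inhibitor Mstn, the transcription factors Foxo1 and Foxo3, and the downstream genes Bnip3 and Eif4ebp1. They were found by symbol and are 10 of the 55487 genes in the deposited count table. All 10 passed the filter on low counts, as did 14549 genes in all. The question put to the data was how wheel running and each supplement related to the RNA level of these genes in muscle.

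Skeletal muscle breaks down its proteins largely through the ubiquitin-proteasome pathway, in which a ligase marks a substrate for the proteasome, and through autophagy. In fasting, disuse and denervation, FoxO transcription factors enter the nucleus and raise the genes of muscle-specific ligases, among them Trim63 (MuRF1) and Fbxo32 (atrogin-1). Myostatin, a secreted protein of the TGF-beta family that muscle itself makes, restrains growth through activin receptors and Smad proteins, while insulin and IGF signalling through Akt holds FoxO out of the nucleus and drives translation.

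The study measured poly-A RNA of quadriceps muscle from 62 male mice that did or did not run on a wheel by choice and received nicotinamide riboside (NR, a form of vitamin B3 that cells turn into NAD), pterostilbene (PT, a stilbenoid of plants), both or neither. The non-running groups had neither supplement, NR alone, PT alone or both, with 8 mice each. The running groups had neither supplement (7 mice), NR alone (7 mice), PT alone (8 mice) or both (8 mice). The series title gives the NR route as intravenous, while the sample labels record only whether NR was given, and no genetic change is named. The sources used here do not give age, strain, dose, the length of running or whether non-runners had a locked wheel. The labels give each library its own body weight change, and each was taken as a separate mouse.

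Library totals lay between 5642043 and 30804390 counts (median 16148218), with RNA integrity numbers of 8.6 to 10. A library of the running group with NR alone (replicate 1) stood apart: it had the lowest total, and the gene Lars2 took 8.07% of its counts, against 0.701% in the next highest library and a median of 0.0171%. For the running effect on the 10 genes and the pathway lists, counts of calls that it moved are given with and without it. Markers of muscle fibres summed to 133800 to 223400 CPM (counts scaled to a common library size) in runners, against 142900 to 182100 CPM without running, and none of the 12 was at 0 in all mice.

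Because several of the genes moved in the same direction with running, promoters are shown for the ligase genes Trim63 and Fbxo40 and for Mstn, as the 250 bases before the first transcribed base in RefSeq (assembly GRCm38.p6), read 5′ to 3′ on the gene's strand. RefSeq promoters were matched for 8 of the 10 genes, which leaves out Fbxo32 and Eif4ebp1. Capitals mark matches, on either strand, to a forkhead motif (GTAAACA, the kind FoxO factors bind), to the E-box (CANNTG, the kind MyoD binds) and to the MEF2 motif. The Trim63 promoter lies at chr4:134314870-134315119 (+ strand), that of Fbxo40 at chr16:36990468-36990717 (- strand) and that of Mstn at chr1:53061390-53061639 (+ strand).
Trim63: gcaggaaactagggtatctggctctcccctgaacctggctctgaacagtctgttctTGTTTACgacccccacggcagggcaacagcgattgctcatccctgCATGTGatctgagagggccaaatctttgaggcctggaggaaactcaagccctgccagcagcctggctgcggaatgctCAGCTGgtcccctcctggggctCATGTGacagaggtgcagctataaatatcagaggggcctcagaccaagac
Fbxo40: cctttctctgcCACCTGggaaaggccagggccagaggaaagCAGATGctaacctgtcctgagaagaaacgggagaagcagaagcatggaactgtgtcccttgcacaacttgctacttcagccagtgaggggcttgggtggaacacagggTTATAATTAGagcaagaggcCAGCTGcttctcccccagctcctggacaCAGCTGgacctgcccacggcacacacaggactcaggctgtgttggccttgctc
Mstn: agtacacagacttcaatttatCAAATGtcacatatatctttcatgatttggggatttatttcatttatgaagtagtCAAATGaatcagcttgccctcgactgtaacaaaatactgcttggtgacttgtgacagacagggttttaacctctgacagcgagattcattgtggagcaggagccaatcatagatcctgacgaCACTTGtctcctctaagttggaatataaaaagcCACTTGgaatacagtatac
The Trim63 sequence held the forkhead motif 194 bases before the start, where the printed strand reads its reverse complement, and E-boxes at 149, 72 and 50 bases. The Fbxo40 sequence held 4 E-boxes, at 239, 209, 81 and 53 bases, and the MEF2 motif at 101 bases, and the Mstn sequence held 4 E-boxes, at 229, 174, 52 and 19 bases. Among 32851 RefSeq promoters of the same length, 3.17% held the forkhead motif, 66.2% an E-box and 2.92% the MEF2 motif, so the E-box is common. A Smad palindrome (GTCTAGAC, 0.167% of promoters) was in none of the 3 sequences, and a Smad-related motif (CAGACA, 17.1% of promoters; not in capitals) was in that of Mstn at 120 bases. A second RefSeq promoter of Fbxo40, at chr16:36979137-36979386, lies within the deposited gene and is not shown; it held 2 E-boxes, at 160 and 89 bases, and no forkhead or MEF2 match. These matches describe letters in the windows and say nothing of binding.

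Levels are in CPM scaled by the trimmed mean of M-values (TMM), and levels of different genes are compared per kilobase of gene model as RPKM. In the deposited table Trim63 (ENSMUSG00000028834) spans chr4:134315120-134329629, Fbxo40 (ENSMUSG00000047746) chr16:36963460-36990467 and Mstn (ENSMUSG00000026100) chr1:53061640-53068045, all in mm10. Over all 62 mice, the mean RPKM was highest for Fbxo40 at 97.8, followed by Trim63 at 85 and Fbxo32 at 66.5, 3 ligase genes of high level in this muscle. Bnip3 followed at 42.5 RPKM, Fbxo31 at 27.9, Mstn at 26.6 and Eif4ebp1 at 14.3. The lowest were Foxo3 at 3.94, Fbxo30 at 3.81 and Foxo1 at 2.35 RPKM. Neighbours in this order that differed by less than the larger of their SDs between mice were Trim63 and Fbxo32 (SD 11.6 and 21.9 RPKM), Fbxo31 and Mstn (SD 2.52 and 6.14 RPKM), and Foxo3 and Fbxo30 (SD 0.457 and 0.486 RPKM).

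**Figure D1:**
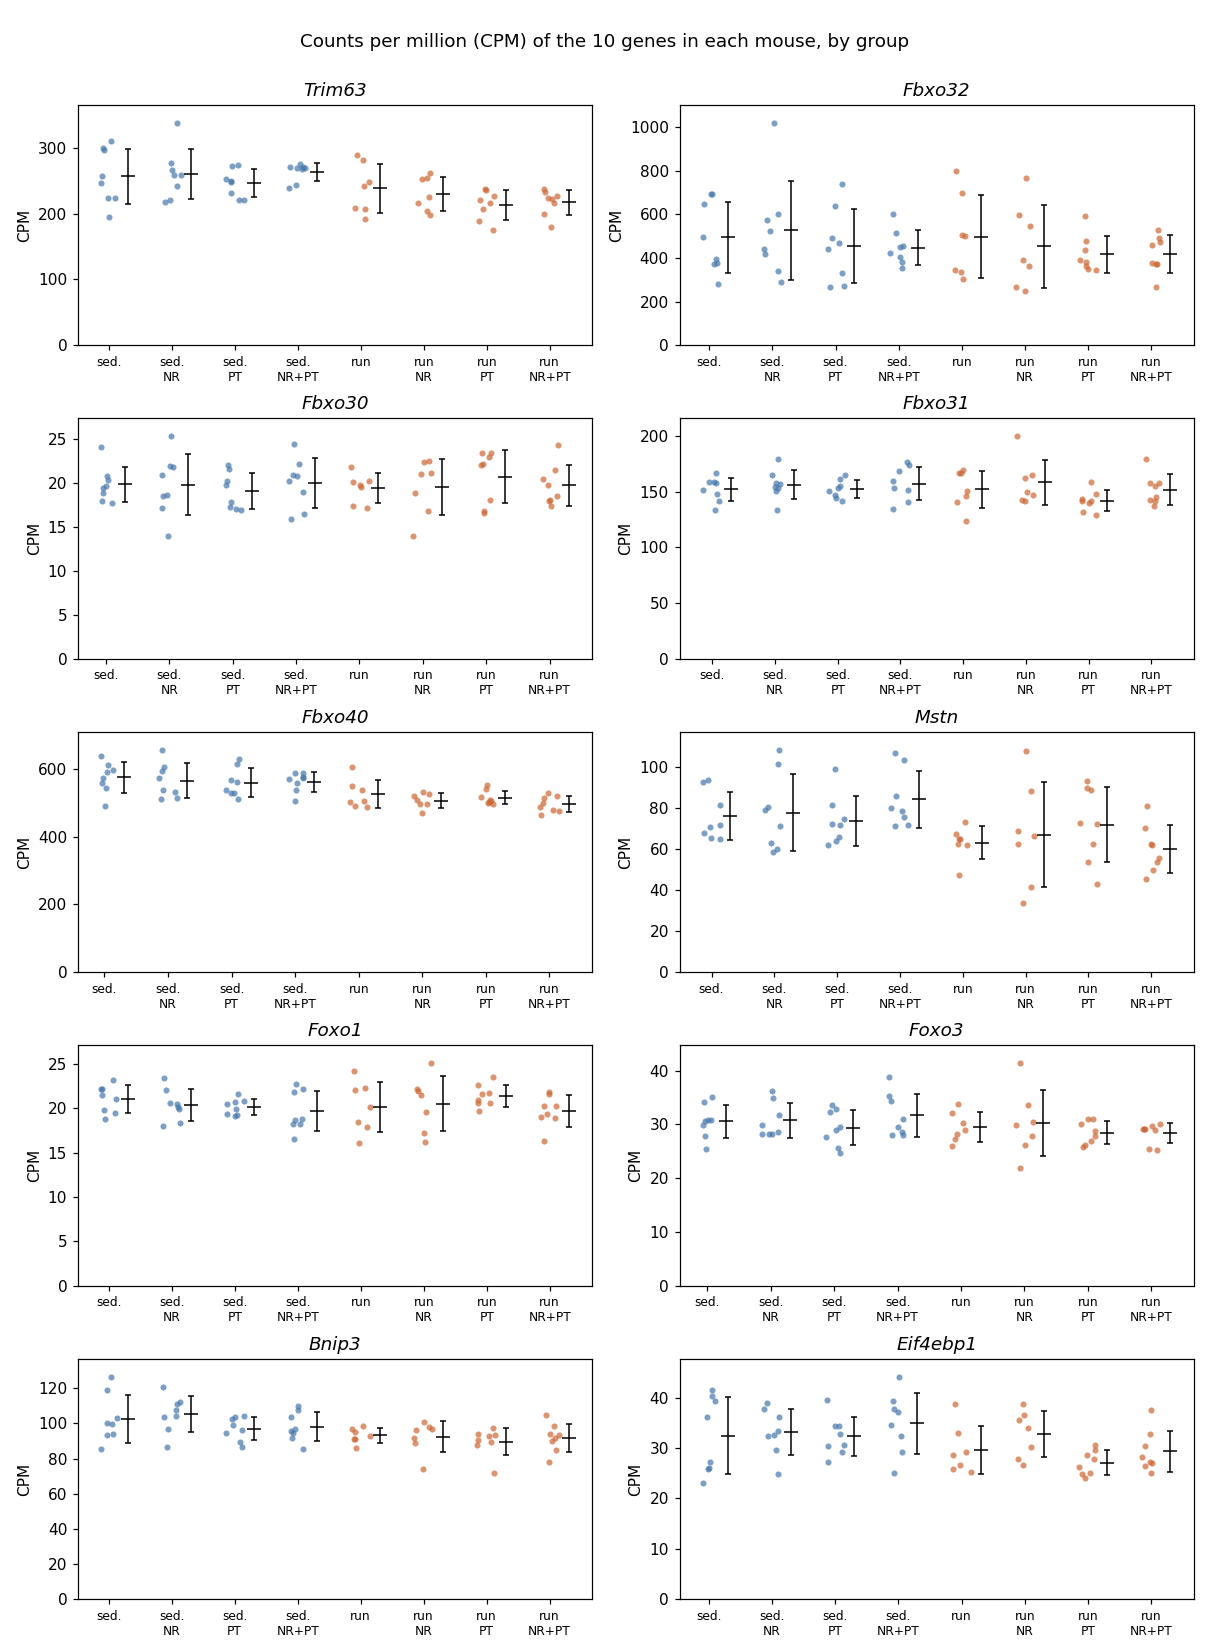
CPM of each of the 10 genes (vertical axes, linear from 0) in each mouse of the 8 groups (horizontal axes; sed., not running; run, running; NR and PT, supplements given). Points are mice and bars show the mean ± SD of a group; Fbxo32 spreads from 246.7 to 1022 CPM while Fbxo40 stays between 464 and 658 CPM.

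Running went with lower RNA of 5 of the 10 genes: the ligase genes Trim63 and Fbxo40, the growth inhibitor Mstn, the mitophagy receptor Bnip3 and the translational repressor Eif4ebp1. The changes were small, and none of the 10 rose: Bnip3 fell by 8.56% and Mstn fell by 15.4%, the ends of the range. Fbxo32, the ligase gene usually named together with Trim63, did not pass the test, nor did Fbxo30, Fbxo31, Foxo1 or Foxo3. Each effect is runners (n = 30) against non-runners (n = 32), averaged over the 4 supplement arms in an edgeR quasi-likelihood fit with day and time of termination, and called at an adjusted p below 0.05 (Benjamini-Hochberg over 14549 genes). This fit counts single mice, although runners and non-runners of a day were killed in separate sessions. On counts summed per session, Trim63, Fbxo40 and Bnip3 were called and Mstn and Eif4ebp1 were not, against 2.99% of genes that fell. In the fit on single mice, 5.58% of all genes fell and 8.41% rose, so 5 falls among 10 genes compare with a background of 5.58%. The 10 genes were chosen with earlier results of these data known, so this comparison is no test of enrichment. Without the library rich in Lars2 counts, 8.51% fell (1247 genes in place of 812) and 1144 genes rose in place of 1223. The median change was -0.11 (log2) over the 10 genes and 0.01 over all genes. These are levels in whole muscle, in which fewer cells of a type and less RNA per cell cannot be told apart.

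Fbxo40, a muscle-specific F-box protein known to target the insulin receptor substrate IRS1, had the smallest p of the 10 genes and ranked 60 among all genes. Its level was 464 CPM in the lowest runner, 506.8 at the median and 607.7 in the highest, against 491, 568.8 and 658 CPM in non-runners. The ranges overlapped, but the middle of the runners lay near the bottom of the non-runners. The log2 change was -0.15 ± 0.02 (SE), with an adjusted p of 5.45e-05 (edgeR). Of 30 pairs of mice of the same day and supplement arm, in which runner and non-runner were always killed at opposite times of day (morning or noon), the runner was lower in 26.

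Trim63 encodes MuRF1, a RING-type ligase of the sarcomere that marks thick-filament proteins. Runners ranged from 174.9 through a median of 223.4 to 290.6 CPM, and non-runners from 195.7 through 258.5 to 339.2 CPM. The runners were shifted down as a whole, with overlap, and the runner was lower in 25 of 30 pairs. The log2 change was -0.19 ± 0.04 (SE), with an adjusted p of 0.000494 (edgeR).

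Mstn showed the largest fall and the widest spread among the 5. Runners ranged from 33.62 through a median of 63.85 to 108.1 CPM, and non-runners from 58.67 through 73.49 to 108.6 CPM. The highest mice of both sets were at about the same level, while the low end was reached by runners. The log2 change was -0.24 ± 0.08 (SE; adjusted p = 0.036, edgeR), and the runner was lower in 21 of 30 pairs. This call rested in part on the mice of day 1: without them the change was -0.15 (adjusted p = 0.276, edgeR), and it was also lost without day 2, 4 or 5, with log2 changes between -0.22 and -0.26.

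Bnip3 encodes a receptor on the outer mitochondrial membrane that draws mitochondria into autophagosomes. Runners ranged from 71.82 through a median of 92.98 to 104.5 CPM, and non-runners from 85.29 through 99.86 to 126.6 CPM. The log2 change was -0.13 ± 0.03 (SE; adjusted p = 0.00421, edgeR), and the runner was lower in 22 of 30 pairs. Of the 52-base stretches of its transcripts, 46.1% also occur in other annotated transcripts, of which the one sharing most (AC160336.1, 32.7%) had a mean of 0.172 CPM, so its count is uncertain to that extent.

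Eif4ebp1 encodes a protein that blocks cap-dependent translation until mTORC1 phosphorylates it. Runners ranged from 24.08 through a median of 28.4 to 38.73 CPM, and non-runners from 23 through 33.14 to 44.18 CPM. The ranges overlapped almost fully, and the log2 change of -0.16 ± 0.06 (SE) was close to the threshold (adjusted p = 0.0454, edgeR). The call was lost without day 1, 2, 4, 5 or 8, with log2 changes between -0.13 and -0.16 and adjusted p between 0.0584 and 0.158 (edgeR).

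Fbxo32 encodes atrogin-1, the substrate receptor of an SCF ligase. It varied more between mice than any other of the 10 genes, with a coefficient of variation of 32.9% and a highest level 4.14 times the lowest. Runners ranged from 246.7 through a median of 390.9 to 797.7 CPM, and non-runners from 267.4 through 446.9 to 1022 CPM. The groups overlapped over most of this range, and the log2 change of -0.08 ± 0.12 (SE) did not pass the test (adjusted p = 0.684, edgeR). Its 95% confidence interval, -0.32 to 0.15, holds changes as large as that of Trim63. The runner was lower in 15 of 30 pairs.

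Among the other genes, Foxo3, a main activator of atrophy genes, was at 29.08 ± 3.45 CPM in runners, against 30.58 ± 3.36 CPM without running (SD, n = 30 and 32), a log2 change of -0.08 ± 0.04 (SE; adjusted p = 0.199, edgeR). Without the library rich in Lars2 counts its change was -0.10 (adjusted p = 0.0428, edgeR), and 6 of the 10 genes then fell, against that 8.51% of all genes. Foxo1, its close relative, was at 20.44 ± 2.27 and 20.29 ± 1.69 CPM, a log2 change of 0.00 with a 95% interval of -0.07 to 0.08. Fbxo30 (MUSA1, a ligase held down by BMP signalling) had a log2 change of 0.02 ± 0.05 (SE), and Fbxo31, a further F-box protein, one of -0.04 ± 0.03 (SE). These are RNA levels, and the activity of FoxO proteins was not measured.

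**Figure D2:**
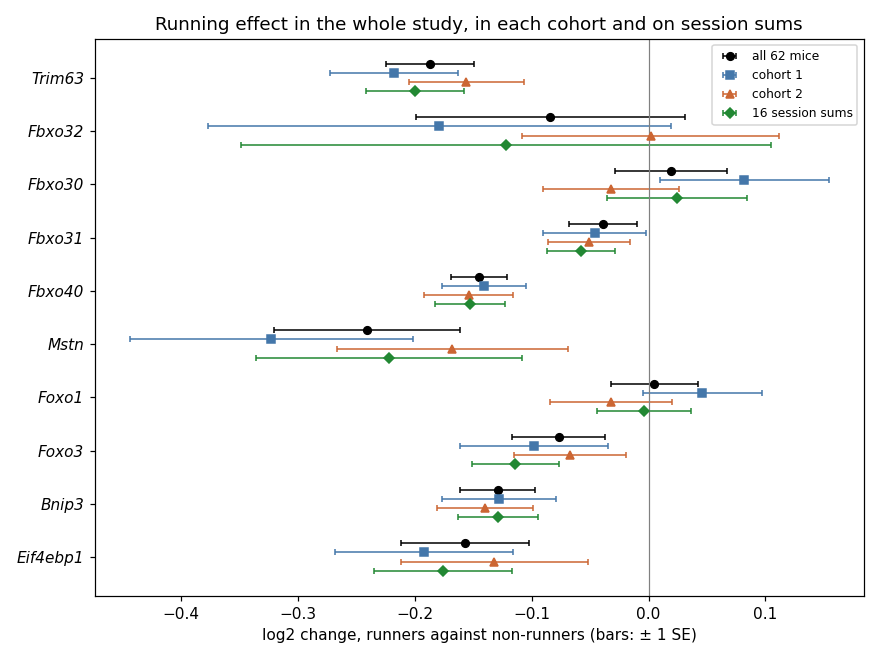
Running effect on each of the 10 genes (horizontal axis, log2 change of runners against non-runners; bars, ± 1 SE) in all 62 mice, in each cohort alone and on counts summed over the 16 termination sessions. The 5 called genes, Trim63, Fbxo40, Mstn, Bnip3 and Eif4ebp1, lie below 0 in each of the 4 fits, whereas Fbxo32, Fbxo30 and Foxo1 have values on both sides of 0.

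The mice were killed in 2 cohorts of 31 over 8 days, and on each day all runners shared 1 time and all non-runners the other. In cohort 1 alone Trim63 (-0.22, adjusted p = 0.0231, edgeR) and Fbxo40 (-0.14, adjusted p = 0.0255, edgeR) were called, against a background of 1.53% of genes that fell. In cohort 2 alone none of the 10 was called, against 0.18%, with log2 changes of -0.16 for Trim63 (adjusted p = 0.132, edgeR) and -0.15 for Fbxo40 (adjusted p = 0.0642, edgeR). The within-cohort log2 changes were -0.32 and -0.17 for Mstn, -0.13 and -0.14 for Bnip3 and -0.19 and -0.13 for Eif4ebp1, in cohort 1 and cohort 2. On session sums, which treat the mice of a day, time and running state as 1 unit, Trim63, Fbxo40 and Bnip3 were called and Mstn (adjusted p = 0.312, edgeR) and Eif4ebp1 (adjusted p = 0.101, edgeR) were not, against 2.99% of genes that fell.

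Body weight moved with running: the weight change in the labels, whose unit is not stated, was -0.44 ± 2.35 in runners and 2.76 ± 1.63 in non-runners (SD, n = 30 and 32). With it as a covariate 494 genes were called, and 2 of the 10 genes, Fbxo40 (-0.15, adjusted p = 0.0177, edgeR) and Bnip3 (-0.16, adjusted p = 0.0497, edgeR), fell, against 1.19% of genes. Trim63 then had a log2 change of -0.17 (adjusted p = 0.0808, edgeR), Mstn -0.22 (adjusted p = 0.314, edgeR) and Eif4ebp1 -0.22 (adjusted p = 0.127, edgeR). Within runners and within non-runners, no slope on weight change passed the test for any of the 10 genes, against 0% of all genes in either state (lowest adjusted p 0.694 and 1, edgeR). The part of body weight in the running effect was not tested.

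Markers of other cells also moved with running. All 10 endothelial markers rose, with a summed level of 281.9 to 544.7 CPM in runners, against 267.2 to 370 CPM without running, as did 3 of 8 fibroblast markers and 2 of 8 tested macrophage and neutrophil markers. Fibroblast markers summed to 1180 to 2798 CPM in runners, against 793.7 to 2740 CPM without running, and macrophage and neutrophil markers to 125.3 to 320.4 and 99.04 to 292.8 CPM. Of the 12 fibre markers 2 rose and 2 fell. Smooth muscle and pericyte markers went both ways (3 of 7 rose and 1 fell), and 1 of 6 adipocyte markers rose. In the satellite cell and Schwann cell lists 1 of 6 fell and 0 rose, and 0 of 5 tested erythrocyte markers were called. Over all genes, 8.41% rose and 5.58% fell. None of these markers was at 0 in all mice. Their part in the lower levels of the 5 genes was not tested.

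NR did not change any of the 10 genes beyond the threshold, against 0.0206% of all genes called (3 genes). The lowest adjusted p among the 10 was 0.918 (edgeR), and none of them had an unadjusted p below 0.05, whereas 828 genes in all (5.69%) did. DESeq2 also called none of the 10. Eif4ebp1 was at 32.56 ± 5.09 CPM with NR and 30.41 ± 5.31 CPM without (SD), a log2 difference of 0.10 with a 95% interval of -0.01 to 0.21. Fbxo31 was at 156.2 ± 15 CPM with NR and 149.7 ± 11.8 CPM without (SD), a log2 difference of 0.06 with an interval of 0.00 to 0.12 whose lower bound lay just below 0. For Trim63 the interval was -0.06 to 0.10 and for Fbxo40 -0.08 to 0.02. The intervals of Mstn, -0.15 to 0.17, and Fbxo32, -0.23 to 0.23, were wider, and that of Fbxo32 holds changes as large as that of Trim63 with running.

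PT likewise left all 10 genes below the threshold, against 0% of all genes called by edgeR (580 genes, 3.99%, had an unadjusted p below 0.05, none of them among the 10) and with none of the 10 called by DESeq2. Trim63 was at 235.5 ± 27.8 CPM with PT and 247.7 ± 37.1 CPM without (SD), a log2 difference of -0.07 with a 95% interval of -0.15 to 0.00. Bnip3 was at 94.14 ± 8.17 and 98.73 ± 11.2 CPM, a log2 difference of -0.06 with an interval of -0.13 to 0.00. Fbxo32 was at 435.2 ± 107 CPM with PT and 494.5 ± 186 CPM without (SD), a log2 difference of -0.18 with the widest interval, -0.40 to 0.05. All 3 intervals include 0.

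**Figure D3:**
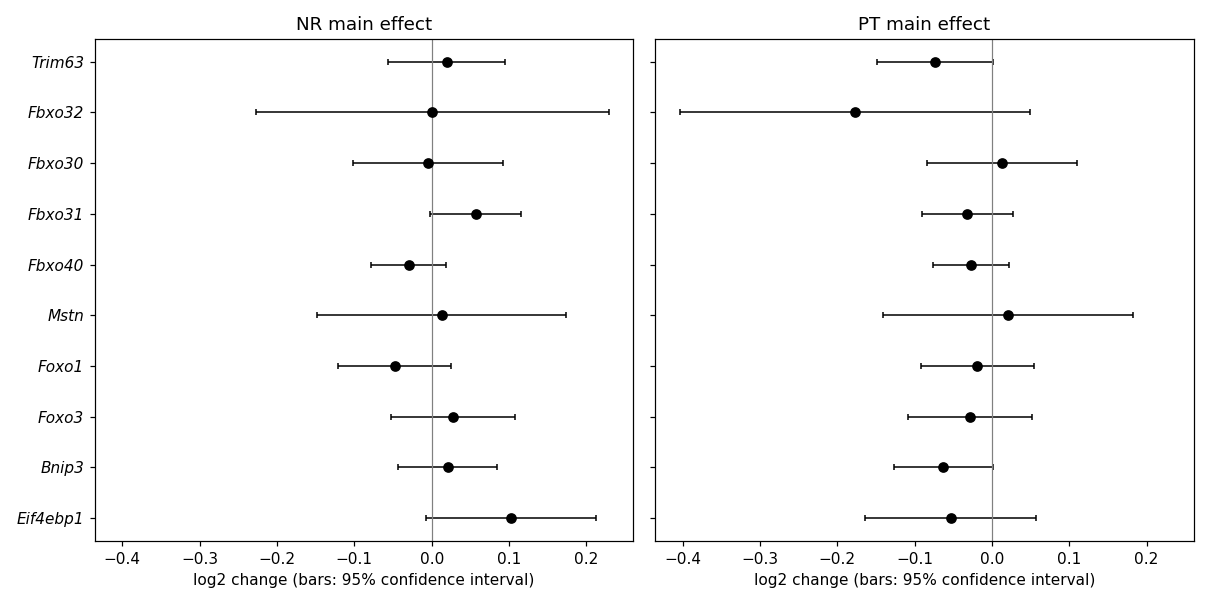
Effect of NR (left) and PT (right) on each of the 10 genes (horizontal axes, log2 change with against without the supplement, averaged over the other factors; points, estimates; bars, 95% confidence intervals). All 20 intervals include 0, and those of Fbxo32 and Mstn are the widest.

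In the 4 supplement arms taken apart, Trim63 and Fbxo40 passed the test where mice had both supplements, against 0.873% of genes that fell. In that arm Trim63 was at 217.9 ± 19.1 CPM in runners, against 263.6 ± 13.8 CPM without running (SD, n = 8 each), a log2 change of -0.28 ± 0.07 (SE; adjusted p = 0.0346, edgeR). Its runners spanned 180.3 to 238.4 CPM and its non-runners 239.5 to 275.7 CPM, so the highest runner lay just below the lowest non-runner. How many of all genes separate in this way was not counted. Fbxo40 was at 497 ± 23.6 and 562.7 ± 28.7 CPM (adjusted p = 0.0378, edgeR). Mstn was at 60.09 ± 11.6 and 84.27 ± 13.8 CPM (SD, n = 8 each), a log2 change of -0.47 ± 0.16 (SE; adjusted p = 0.105, edgeR). None of the 10 was called with neither supplement, NR alone or PT alone, against 0%, 0.0412% and 0.00687% of genes that fell (edgeR; 2, 3 and 3 of the 10 had an unadjusted p below 0.05, against 6.8%, 10.9% and 9.22% of all genes).

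These arms were not shown to differ. None of the 10 genes passed the test for an interaction of running with NR, of running with PT, of NR with PT or of all 3 factors, against 0% of all genes in each (unadjusted p below 0.05 in 525, 511, 327 and 403 genes, or 3.61%, 3.51%, 2.25% and 2.77%, none of them among the 10). The lowest adjusted p among the 10 was 1 in each (edgeR). For Mstn the 3-way term was -0.47 with a 95% interval of -1.12 to 0.18. The effects of NR and of PT within each arm gave no call among the 10 genes either, against 0% of all genes in 7 of these 8 comparisons and 0.00687% for PT in non-runners with NR. The lowest unadjusted p there was that of Trim63 with PT in runners without NR, with a log2 difference of -0.17 (unadjusted p = 0.0281, adjusted p = 1, edgeR).

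Time of day was compared on sums per session, with 4 morning and 4 noon sessions in each running state. Fbxo32 was at 399.5 ± 89 CPM in the morning and 492.2 ± 120 CPM at noon in runners, and at 415.6 ± 123 and 547.5 ± 135 CPM in non-runners (SD of session means). The session ranges overlapped in both, and none of the 10 genes was called, against 0% of all genes in either state (lowest adjusted p 0.983 and 0.934, edgeR; unadjusted p below 0.05 in 4.07% and 4.84% of genes, none of them among the 10). In a fit on single mice, which share sessions, the log2 difference from morning to noon was 0.33 ± 0.12 (SE) for Fbxo32 (unadjusted p = 0.00597, adjusted p = 0.691, edgeR) and 0.09 ± 0.04 (SE) for Trim63 (unadjusted p = 0.0177, adjusted p = 0.786, edgeR). No gene was called in that fit (0%), and 5.28% of all genes had an unadjusted p below 0.05. Cohort 2 against cohort 1 gave no call either, against 0% of all genes (lowest adjusted p 0.69, edgeR).

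The share of each gene's variation that went with each factor set the genes apart. Running took 38.6% of the sum of squares of log2 CPM for Fbxo40, 25% for Trim63, 20.8% for Bnip3, 16.1% for Mstn and 11.5% for Eif4ebp1. For Fbxo32 running took 1.4% and time of day 14%, and 75.5% remained after group, day and time. No group had more than 1 mouse on a day, so this remainder is what the fit left and may also hold differences between sessions. For Fbxo30 85.3% remained. NR took at most 5.4% (Fbxo31) and PT at most 4.3% (Bnip3).

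After group, day and time were removed, the genes still varied together in some pairs. Of 45 pairs, 7 passed an adjusted p of 0.05 by both Pearson's r and Spearman's rho (permutation tests with 100000 resamples over 62 mice, Benjamini-Hochberg over the 45 pairs). The permutations treat the 62 remaining values as free, while the fit left 46 residual degrees of freedom. The permutation p-values are therefore too small, and pairs near the threshold may not pass a test that allows for this. Fbxo32 and Trim63, the 2 best-known atrophy ligase genes, had an r of 0.74 and a rho of 0.76 (permutation p = 1e-05, the smallest these resamples give; adjusted p = 0.00045). The r was 0.73 without the 2 mice farthest from the median of Trim63, and 0.76 and 0.73 in cohort 1 and cohort 2. Mice extreme in Fbxo32 alone were kept. In the pairs that follow, the 2 farthest mice are those of the gene named first. So mice of 1 group with more Fbxo32 RNA also had more Trim63 RNA, although the call with running was made for Trim63 alone of these; the difference between their running effects was not tested.

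Fbxo32 and Mstn went in opposite directions, with an r of -0.44 (permutation p = 0.00047, adjusted p = 0.007) and a rho of -0.40 (permutation p = 0.0013, adjusted p = 0.015). The r was -0.35 without the 2 farthest mice, -0.67 in cohort 1 and -0.05 in cohort 2, so the relation did not hold within cohort 2. Foxo1 and Eif4ebp1 had an r of -0.48 (permutation p = 0.00018, adjusted p = 0.004) and a rho of -0.45 (permutation p = 0.00045, adjusted p = 0.01). Their r was -0.47 without the 2 farthest mice and -0.29 and -0.65 in the cohorts.

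Mstn and Bnip3 had an r of 0.40 and a rho of 0.36 (permutation p = 0.0013 and 0.0044, adjusted p = 0.015 and 0.028), with 0.36 without the 2 farthest mice and 0.45 and 0.34 in the cohorts. Fbxo31 and Eif4ebp1 had an r of 0.38 and a rho of 0.41 (permutation p = 0.0021 and 0.0012, adjusted p = 0.019 and 0.015), with 0.47 without the 2 farthest mice and 0.19 and 0.62 in the cohorts. Fbxo32 and Fbxo40 had an r and a rho of 0.36 (permutation p = 0.0037 and 0.0039, adjusted p = 0.027 and 0.028), with 0.37 without the 2 farthest mice and 0.53 and 0.20 in the cohorts. Trim63 and Fbxo31 had an r of 0.34 and a rho of 0.37 (permutation p = 0.0068 and 0.0031, adjusted p = 0.041 and 0.028), with 0.34 without the 2 farthest mice and 0.26 and 0.44 in the cohorts. In these 4 pairs the sign was the same in both cohorts.

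**Figure D4:**
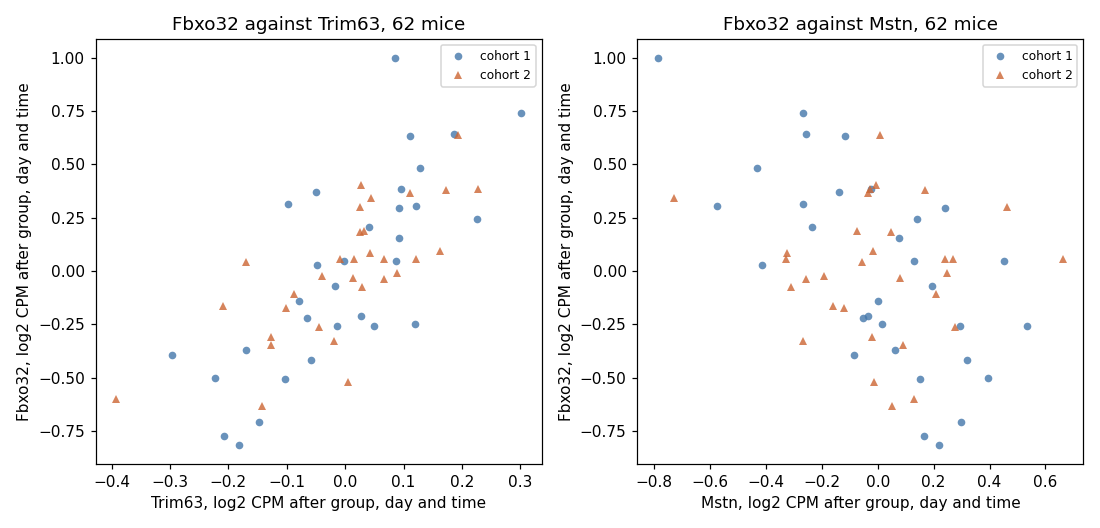
Fbxo32 against Trim63 (left) and against Mstn (right) in 62 mice, as log2 CPM after group, day and time were removed (both axes, 0 is the mean); circles are cohort 1 and triangles cohort 2. The left panel rises in both cohorts (r of 0.76 and 0.73), and the right panel falls in cohort 1 (r of -0.67) and is flat in cohort 2 (r of -0.05).

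Likeness to other genes was measured as Pearson's r of the same residuals over 62 mice, among 11772 genes whose mean reached 1 CPM, and is a description without a test. Genes most like Trim63 included Fbxo32 (0.74) and Kctd20 (0.61). Those most like Fbxo32 were Plcd3 (0.81), Asb2 (0.80), the substrate receptor of a cullin ligase, and Fam53b (0.79). Those most like Mstn were Sub1 (0.75), Tiparp (0.75) and Ate1 (0.72), the last an arginyltransferase that tags proteins for degradation. Each gene named here stayed at 0.57 or above within each cohort, and all share the libraries from which they were counted.

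The counts in the pathway lists compare with the 5.58% of all genes that fell with running and the 8.41% that rose. These lists were also chosen with earlier results of these data known, so the comparison is no test of enrichment. Calls in the lists come from the fit on single mice. They were not tested on session sums, on which 2.99% of all genes fell. Among 27 other muscle ligases and their scaffolds, 5 fell with running and 1 rose, with a median of -0.05 (log2). Without the library rich in Lars2 counts, 7 fell and 0 rose, with a median of -0.06, against 8.51% of all genes that then fell. Trim54, which encodes a close relative of MuRF1, fell by 0.18 on the log2 scale (adjusted p = 0.000163, edgeR), from 284.7 CPM in non-runners to 251.4 in runners. Trim55, the remaining gene of the MuRF family, fell by 0.09 (adjusted p = 0.0426, edgeR), so all 3 MuRF genes were lower in runners. Skp1a and Cul1, parts of the SCF scaffold that carries F-box proteins, fell by 0.10 and 0.06 (adjusted p = 0.0107 and 0.046, edgeR), and the scaffold gene Cul3 by 0.07 (adjusted p = 0.0285, edgeR). Smurf1 rose by 0.09 (adjusted p = 0.0325, edgeR), a call that was not made with RLE scaling or without the library rich in Lars2 counts. Trim55, Cul1 and Smurf1 were named after their values were seen.

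Of 31 constitutive proteasome subunits, 8 fell and none rose, against 5.58% of all genes that fell. Without the library rich in Lars2 counts, 10 fell and 0 rose, against 8.51%. All 31 had a log2 change below 0, as had 44.9% of all genes, and the median was -0.06. The fall was largest for Psmd8, a lid subunit of the regulatory particle, which went from 217.0 to 186.9 CPM (log2 change -0.21 ± 0.04, SE; adjusted p = 6.32e-05, edgeR). Psmd7 and Psmd4, of the same particle, fell by 0.09 and 0.10 (adjusted p = 0.0113 and 0.0124, edgeR). The remaining 5 called subunits fell by 0.07 to 0.10.

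In the myostatin and activin list, 4 of 17 tested genes fell and none rose (19 listed), against 5.58% of all genes that fell. Gdf11, the closest relative of Mstn, fell by 0.30 ± 0.07 (SE) on the log2 scale, from 33.82 to 27.38 CPM (adjusted p = 0.00202, edgeR). The receptor genes Tgfbr1 and Acvr2a fell by 0.14 and 0.19 (adjusted p = 0.00782 and 0.0109, edgeR), and Smad4, the shared partner of receptor-activated Smads, by 0.08 (adjusted p = 0.0184, edgeR; named after its value was seen). The genes that fell were thus a ligand, 2 receptors and a mediator, and the median of the list was -0.03. Of 14 tested genes of BMP signalling (16 listed), the receptor gene Bmpr1a fell by 0.17 (adjusted p = 0.000201, edgeR), and no other gene was called. This count is near the 5.58% of all genes that fell.

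Among 19 other FoxO factors, upstream kinases and targets, 2 rose and 1 fell, with a median of 0.02; without the library rich in Lars2 counts 2 rose and 2 fell, with a median of -0.01. Igf1, a growth factor whose signal restrains FoxO, rose by 0.32 ± 0.10 (SE), from 15.29 to 18.96 CPM (adjusted p = 0.0193, edgeR), and Sod2, a mitochondrial superoxide dismutase, by 0.14 (adjusted p = 0.00333, edgeR). Akt2, a kinase of the insulin pathway, fell by 0.07 (adjusted p = 0.027, edgeR). These counts are near the shares of all genes that rose (8.41%) and fell (5.58%).

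In the autophagy and mitophagy list, 4 of 25 genes fell and 1 rose, against 5.58% and 8.41% of all genes. Without the library rich in Lars2 counts, 5 fell and 1 rose, against 8.51% of all genes that then fell. Bnip3l, which encodes the closest relative of Bnip3, fell by 0.10 (adjusted p = 0.00284, edgeR), and Pink1, a kinase that marks damaged mitochondria, by 0.11 (adjusted p = 0.00592, edgeR). Ctsb, a lysosomal protease, rose by 0.13 (adjusted p = 8.7e-05, edgeR). In the list of mTORC1 and translation, 6 of 19 tested genes fell (20 listed) and none rose. Without that library 7 fell and 0 rose. Eif4ebp2, the close relative of Eif4ebp1, went from 416.0 to 368.6 CPM (log2 change -0.17 ± 0.03, SE; adjusted p = 5.64e-05, edgeR). Eef2k, a kinase that slows elongation, and Rheb, an activator of mTORC1, fell by 0.15 and 0.10 (adjusted p = 0.00033 and 0.000951, edgeR).

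**Figure D5:**
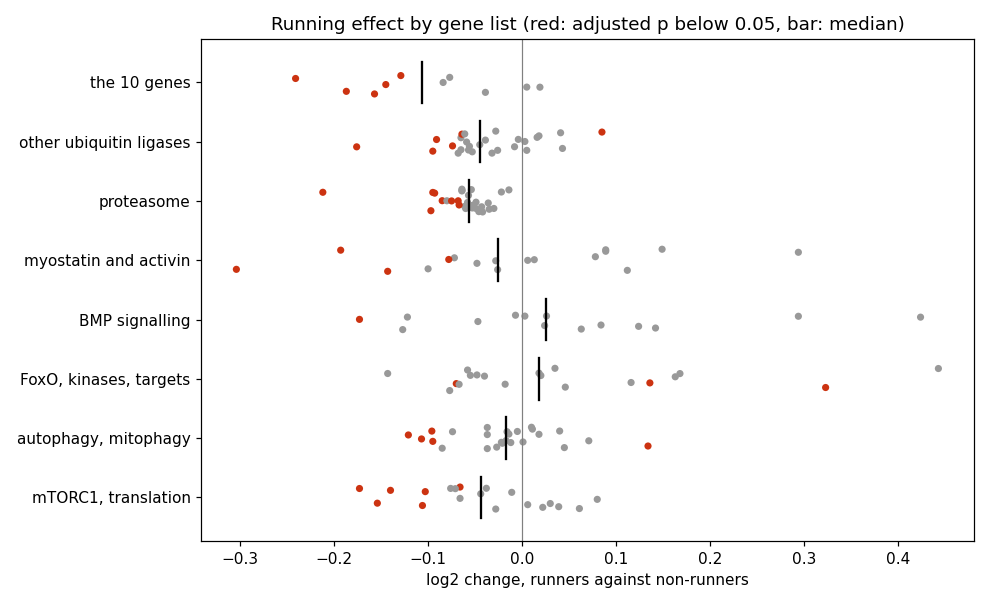
Running effect on the genes of each list (horizontal axis, log2 change of runners against non-runners; points, genes; red, adjusted p below 0.05; black bars, list medians). The 10 genes have the lowest median, -0.11, and all 31 proteasome subunits lie below 0. The genes and lists were chosen with earlier results of these data known.

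With NR and with PT, no gene of these 7 lists was called, against 0.0206% and 0% of all genes.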

How the data were processed

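Quadriceps RNA was isolated by TRIzol, columns and DNase and read in pairs of 52 bases from stranded poly-A libraries, per the labels' protocols. The authors deposited a table of whole-number counts per gene, not normalized, made with STAR 2.7.3a and featureCounts 2.0.0 on mm10, per the submitters' processing notes. No source used here gives the annotation release or strand setting. If strand was ignored, reads in the exon parts that Fbxo32, Foxo1 and Bnip3 share with antisense genes (Gm15943, Gm20402 and Gm45507; 1.98%, 6.65% and 15.6% of their 52-base stretches) could not be told apart; these antisense genes had means of 2.78, 0 and 0.00236 CPM. Symbols came from GENCODE M21 (55394 of 55487 genes matched).

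The members and gene lists were chosen with earlier results of these data known. Counts were filtered (edgeR filterByExpr, minimum count 10, minimum total 15), scaled by TMM and tested with the quasi-likelihood F test of edgeR 4.0.16 (limma 3.58.1, R 4.3.3). The model held the 8 groups, the 8 days and the time of termination (46 residual degrees of freedom, common biological coefficient of variation 14%). Tests were two-sided, with Benjamini-Hochberg adjustment over all genes of a contrast. Cohort and time comparisons used counts summed over 16 sessions (17242 genes, 11 residual degrees of freedom), and the running test on these sums, with day and time, had 6 residual degrees of freedom. Alternatives were RLE scaling, DESeq2 1.42.0, other covariates and filters, each cohort alone and each day left out. The library rich in Lars2 counts was left out as an alternative chosen after the data were seen. On simulated counts for 14466 genes, the running test recovered 40% of genes changed 1.1-fold, 80% of those changed 1.25-fold, 96% at 1.5-fold and 98% at 2-fold, with 6 false calls. The simulated mice were independent, without day, time or session effects, and the changed genes had means above 1 CPM. These rates may therefore be too favourable for the real data. Named genes were the 10 members, up to 3 called genes of smallest p per list, and the 3 genes most like each of Trim63, Fbxo32 and Mstn, of which 1 is not reported here. Log2 CPM used a prior count of 2.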

Additional observations from a re-analysis of the deposited data

Results flagged for a closer look

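In 4 of 80 sets of a gene in a group, 1 mouse lay far from the others by Dixon's test at its 95% critical value, which chance gives in about 5% of sets. In non-running mice with NR alone, Fbxo32 was at 1022 CPM in replicate 1, and the others lay between 288 and 603.8 CPM. Among runners with NR alone, Fbxo31 was at 200.2 CPM in replicate 1, the library rich in Lars2 counts, and at 142.1 to 164.8 CPM in the others. For runners with PT alone, Bnip3 was at 71.82 CPM in replicate 2 and at 87.58 to 97.63 CPM in the others. In runners with neither supplement, Mstn was at 47.17 CPM in replicate 1 and at 61.93 to 73.1 CPM in the others.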

How the results depend on the processing

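With running, 5 of the 10 genes were called as reported, all of them falls, against 5.58% of 14549 genes that fell. The number was 3 without a low-count filter (1333 genes called in place of 2035, and 1.78% of 35005 fell). It was 3 with purification pool and RIN added (1675 genes called, 4.56% fell). With body weight change added it was 2 (494 genes, 1.19% fell), and in cohort 1 alone 2 (623 genes, 1.53% fell). In cohort 2 alone it was 0 (63 genes, 0.18% fell), and on session sums 3 (1244 genes, 2.99% fell). Leaving out each day in turn gave 3 to 5 (1036 genes without day 1 and 1189 without day 4). The share of genes that fell then lay between 3.4% (without day 1) and 7.92% (without day 2). The cause was not tested. Fits on a cohort or without a day held fewer mice, and the unfiltered test held more genes. The part of either was not tested. The number stayed at 5 with RLE scaling (7.14% of genes fell), DESeq2 (7.9%) and the groups alone (5.56%). It was 6 without the library rich in Lars2 counts (8.51%). All 5 kept their direction in each of 19 alternatives, and were called in 18 (Fbxo40), 17 (Trim63), 17 (Bnip3), 9 (Mstn) and 8 (Eif4ebp1) of them. Rises and falls over all genes numbered 1223 and 812 as reported, 1104 and 1039 with RLE scaling, 1227 and 1150 with DESeq2, and 1144 and 1247 without the library rich in Lars2 counts. None of the 10 genes was called with NR or PT in any of the 19 alternatives.

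Replicate numbers are shared between groups in the labels, but of 211 pairs of mice with the same number 32 correlated above 0.1, with a median of 0.01, and 13 of 62 mice were closest on average to their own number. Of 210 pairs of mice of the same day, 37 correlated above 0.1, with a median of 0.01. No chance level was computed for these counts. With the replicate number as a block in place of the day, 5 of the 10 genes and 1976 genes in all (13.6%) were called with running. Depth limits the lowest members most: Fbxo30 had 65 counts and Foxo1 97 counts in their lowest library.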
